A study of Homo sapiens with 6 samples.

Results

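Small nucleolar RNAs (snoRNAs) and the genes whose introns hold them were followed in libraries labelled Huh7, a human hepatocellular carcinoma line, after 24 h at 1% oxygen (hypoxia, 3 libraries) or 21% oxygen (normoxia, 3 libraries). Both groups are labelled wild type and grown in DMEM with fetal bovine serum. Total RNA was extracted with TRIzol, depleted of ribosomal RNA (rRNA) and read from both ends of strand-specific libraries. The members are the genes that GENCODE release 29 types as snoRNA, taken whatever their values. There were 943 of them, among 58478 genes with a row in the deposited table, and 942 had a row themselves. By symbol, 278 were SNORD genes (C/D box), 147 were SNORA genes (H/ACA box), 512 carried only an Rfam family name and 6 had other names. Libraries are named by their column, hypoxia C4 to C6 and normoxia C1 to C3. The labels speak of biological replicates and say nothing of how the cultures were kept apart, so each p-value reflects the scatter among these libraries.

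SnoRNAs are nucleolar guide RNAs. C/D box snoRNAs, bound by the methyltransferase fibrillarin (FBL), direct 2′-O-methylation of rRNA, and H/ACA box snoRNAs, bound by the pseudouridine synthase dyskerin (DKC1), direct pseudouridylation. In human cells most of them are cut out of introns: the host transcript is spliced, the intron lariat is opened by the debranching enzyme DBR1 and exonucleases trim both ends up to the snoRNA's protein shell. A few, such as U3 (the SNORD3 genes), U8 (SNORD118) and U13 (SNORD13), have promoters of their own. Many hosts encode ribosomal proteins or translation factors, while others, named SNHG, are noncoding RNAs whose spliced exons are mostly degraded.

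The class boxes could be read in the annotated sequences, shown here for members on which the host comparison turns. The search used the strand of the RNA and exact letters: TGATGA (the C box) within the first 30 bases, CTGA (the D box) within the last 15, and ACA within the last 10. Capitals mark these motifs, and for ACA the last one in the window. SNORA73B and SNORA71A lie in noncoding hosts, SNORA23, SNORD17 and SNORD10 in protein-coding hosts, and SNORA6 in a ribosomal protein gene. None of the sequences overlaps an annotated UTR on its strand. They are the GENCODE release 29 transcripts on GRCh38.
SNORA73B, chr1:28508559-28508762, plus strand, intron of SNHG3: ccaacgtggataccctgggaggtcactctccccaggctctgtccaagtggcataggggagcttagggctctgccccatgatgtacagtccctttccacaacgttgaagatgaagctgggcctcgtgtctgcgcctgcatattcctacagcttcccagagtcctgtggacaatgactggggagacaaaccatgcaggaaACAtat
SNORA71A, chr20:38427309-38427442, minus strand, intron of SNHG17: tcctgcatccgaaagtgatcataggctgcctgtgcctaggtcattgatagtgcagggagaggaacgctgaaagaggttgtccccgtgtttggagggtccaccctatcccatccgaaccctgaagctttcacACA
SNORA23, chr11:9428773-9428954, plus strand, intron of IPO7: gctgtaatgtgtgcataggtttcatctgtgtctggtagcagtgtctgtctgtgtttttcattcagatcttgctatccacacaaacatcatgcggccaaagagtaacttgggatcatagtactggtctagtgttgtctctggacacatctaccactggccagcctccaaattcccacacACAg
SNORA6, chr3:39408389-39408539, plus strand, intron of RPSA: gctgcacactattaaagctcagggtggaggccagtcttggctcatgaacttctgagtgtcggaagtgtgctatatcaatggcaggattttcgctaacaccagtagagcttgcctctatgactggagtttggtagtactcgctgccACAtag
SNORD17, chr20:17962710-17962946, minus strand, intron of SNX5: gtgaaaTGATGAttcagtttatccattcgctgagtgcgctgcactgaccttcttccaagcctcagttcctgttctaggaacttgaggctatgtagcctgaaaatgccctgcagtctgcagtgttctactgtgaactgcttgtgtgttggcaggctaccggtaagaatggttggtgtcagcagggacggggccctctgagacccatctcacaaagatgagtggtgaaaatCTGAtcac
SNORD10, chr17:7576811-7576952, plus strand, intron of EIF4A1: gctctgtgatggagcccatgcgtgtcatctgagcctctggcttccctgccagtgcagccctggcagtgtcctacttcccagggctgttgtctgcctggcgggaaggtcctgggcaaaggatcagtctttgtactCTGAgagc

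Over the whole classes, the C box letters stood in 71.2% of SNORD genes and 0.685% of the 146 SNORA genes with a sequence. The D box letters stood in 91.7% of SNORD genes and 3.42% of SNORA genes, and ACA in 89.7% of SNORA genes and 5.04% of SNORD genes. An ACA exactly 3 bases before the end stood in 76.0% of SNORA genes and 1.44% of SNORD genes. In the reverse complements the same windows held the C box in 0.719% of SNORD genes and ACA in 16.4% of SNORA genes. The names therefore separated the classes by these motifs, while SNORD10 shows that a named C/D box member can lack the exact C box letters.

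Expected counts, which are reads divided among transcripts by RSEM, summed to between 37621426 and 40794783 per library. Levels are given as CPM, counts scaled to a common TMM-adjusted library size. Of 5 oxygen-response markers, 5 were higher in hypoxia, and NDRG1, a stress gene, averaged 7634 CPM in hypoxia and 379 CPM in normoxia. Of 12 hepatocyte markers, 9 were under 1 CPM in both groups and 4, among them alpha-fetoprotein (AFP), had no count. The 3 that could be tested were higher in hypoxia, with HNF4A, a liver transcription factor, averaging 7.005 CPM in hypoxia and 1.29 CPM in normoxia. Markers of the labelled tissue were thus largely absent, and the identity of the line was not tested.

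Detection differed with the annotated length among the SNORD genes, while nearly all SNORA genes had 120 bases or more. Of the 943 genes, 783 had no count in the 6 libraries and 160 had some. Among SNORA genes, with a median length of 134 bases, 106 of 147 (72.1%) were detected. Among SNORD genes, with a median of 82 bases, 34 of 278 (12.2%) were. Only 1 of 123 SNORD genes under 80 bases and 11 of 121 with 80 to 99 bases had a count, against 7 of 13 with 100 to 119 bases and 3 of 3 with 120 to 139 bases. Of those with 140 to 199 bases 5 of 6 had one, and of those with 200 or more 7 of 12. For SNORA genes these were 89 of 125 with 120 to 139 bases, 11 of 13 with 140 to 199 and 6 of 7 with 200 or more. SNORD48, SNORD61, SNORD68, SNORD72, SNORD95, SNORD96A and SNORD104, guide RNAs whose levels often serve as references in small RNA assays, were at 0 in every library. The 48 SNORD115 and 30 SNORD116 copies of the imprinted chromosome 15 cluster were at 0 too. A count of 0 allows up to 3 counts in a library, 0.0841 to 0.0898 CPM in hypoxia and 0.0749 to 0.0764 CPM in normoxia, for counting error only. SNORD33 held 10.99 and SNORD14C, a U14 copy involved in small subunit rRNA processing, 13.97 expected counts over the 6 libraries together, too few for a test. The Rfam-named genes were rarely seen whatever their length, 17 of 512 in all and 10 of the 208 with 120 to 139 bases. For most short C/D box snoRNAs the libraries therefore carry no information on hypoxia.

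**Figure D1:**
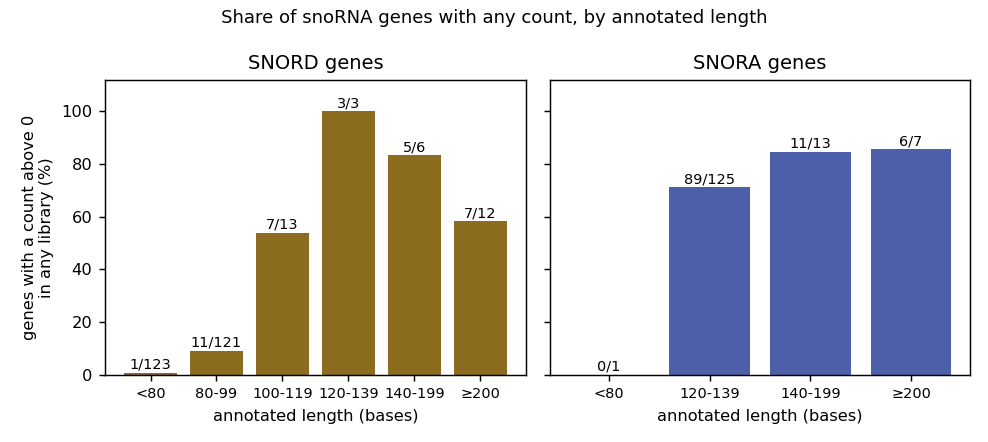
Bars give the percentage of genes with a count above 0 in any of the 6 libraries, by annotated length in bases, for SNORD genes (left panel) and SNORA genes (right panel), with the detected and total number of genes over each bar. SNORD genes under 100 bases were rarely detected, and the SNORA genes of 120 to 139 bases reached 71.2%.

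A snoRNA could be tested at 71 of the 943 genes, 14 SNORD, 54 SNORA, 2 SCARNA and 1 Rfam-named gene. Of the 943 genes, 34 overlap another snoRNA gene on the same strand, and 4 of these were tested. The 2 tested SNORA17B entries overlap each other almost fully, so 1 locus is counted as 2 members. In edgeR's quasi-likelihood test with Benjamini-Hochberg adjustment over 17396 genes, 60 of the 71 were higher in hypoxia, 1 was lower and 10 did not pass. Of all genes tested, 36.5% rose and 36.3% fell, 72.8% together. CPM values are shares of a library, so a larger amount of a snoRNA per cell and a smaller amount of other RNA cannot be told apart. The median log2 change was 1.25 over the tested snoRNAs and 0.02 over all genes. At least 2-fold rises were seen in 52 of the 71, against 17.5% of all genes. In 53 the 3 hypoxia libraries all lay above the 3 normoxia libraries, which held for 38.1% of all genes. Counting SNORD3B-1, with normoxia above, 54 did not overlap, against 75.7% of all genes in either direction. Because the filter on low counts looks at both groups, a gene could enter through its hypoxia level alone. The 44 members over the filter level of 0.269 CPM in every normoxia library give the narrower view: 39 rose, 1 fell and for 4 the test gave no call. Their median was 1.15 and their highest log2 change 2.07, beside 33.8% risen and a median of -0.07 among the 15621 genes over that level. The 89 members detected but not tested summed to 5.30, 8.23 and 10.1 CPM in hypoxia and to 3.90, 3.67 and 4.15 CPM in normoxia.

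The box classes had similar median changes, and the difference between them was not tested. Among the tested SNORD genes 11 of 14 rose and 1 fell. Their log2 changes had a median of 1.20. Among the tested SNORA genes 46 of 54 rose and none fell, each of the 54 log2 changes was positive, and the median was 1.25. Among members over the filter level in every normoxia library, 8 of 9 SNORD genes rose and 1 fell (median 1.13), and 28 of 32 SNORA genes rose (median 1.17). Summed over their class, SNORA genes held 752, 1052 and 1155 CPM in hypoxia C4, C5 and C6, against 572, 426 and 464 CPM in normoxia C1, C2 and C3. SNORD genes without the SNORD3 copies held 49.1, 63.1 and 86.7 CPM in hypoxia, against 33.2, 23.2 and 33.1 CPM in normoxia. In both sums every hypoxia library exceeded every normoxia library, with C4 the lowest and C6 the highest of the hypoxia group. That order ran through the members: of the 71, C6 was the highest hypoxia library for 54 and C4 the lowest for 62, and C2 was the lowest normoxia library for 57. Without C6, 44 of 71 tested members rose, beside 34.8% of all genes. Without C4, 66 of 77 tested members rose, beside 33.9% of all genes.

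Other short, structured RNAs moved the same way in the same libraries. Spliceosomal and related snRNA genes summed to 46048, 58487 and 53229 CPM in hypoxia and to 34193, 31560 and 29200 CPM in normoxia (1.66-fold), and 33 of 41 tested rose while 3 fell. The small Cajal body RNAs, which guide modification of the snRNAs, summed 2.12-fold higher and rose in 7 of 7. The class misc_RNA, with 7SK, 7SL and Y RNA genes, summed 1.97-fold higher, with 27 of 41 risen and 2 fallen. Protein-coding genes summed 1.05-fold higher, with 4560 of 13140 risen and 5644 fallen. When the libraries were instead scaled to the summed snRNA counts, a setting chosen after seeing the data, 21 of the 71 snoRNAs rose and 1 fell, with medians of 0.45 for SNORD and 0.51 for SNORA genes. On that scale 13.8% of all genes rose and their median was -0.70. Among these members SNORA73A, SNORA73B, SNORA74A, SNORA23, SNORD3A, SNORD118, SNORD15B, SNORA24, SNORA63 and SNORA21 were not called on that scale, while SNORA6, SNORA7A, SNORD17, SNORD10, SNORD13, SNORD22, SNORA71A and SNORA71C still were. The part that the recovery of short RNAs has in the level of the snoRNAs was not tested.

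**Figure D2:**
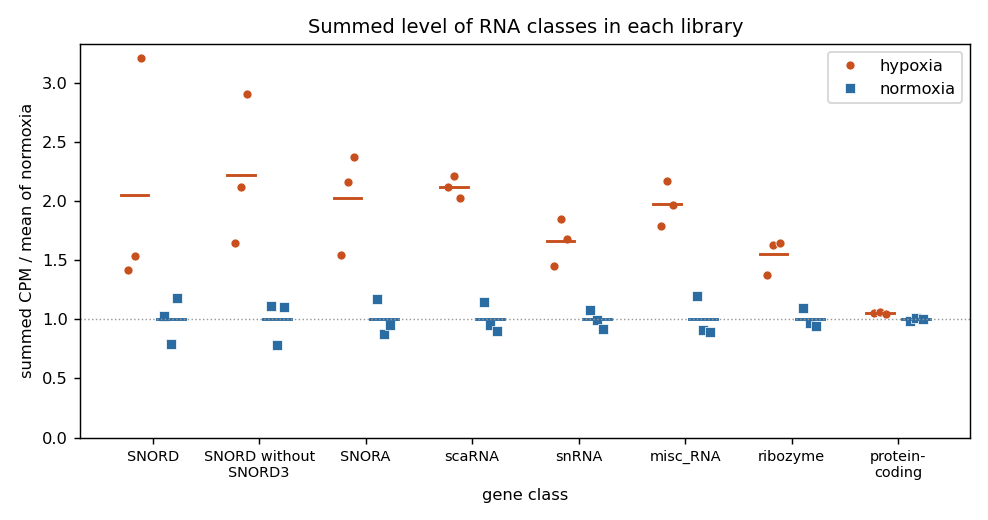
The vertical axis gives the summed CPM of a gene class in a library divided by its mean over the normoxia libraries. Circles are hypoxia libraries, squares are normoxia libraries and short lines are group means (n = 3 each). The snoRNA sums and those of scaRNA, snRNA, misc_RNA and ribozyme genes lie above normoxia, and the protein-coding sum was 1.05-fold higher.

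The most abundant snoRNAs per length were SNORA73B at 1495 and SNORA73A at 1479 CPM per kb over all libraries, followed by SNORD3A at 984 and SCARNA10 at 909.7 CPM per kb, which could not be put in order: SNORD3A averaged 1316 CPM per kb in hypoxia and 651 in normoxia, and SCARNA10 averaged 1152 in hypoxia and 667 in normoxia. SNORA73A and SNORA73B, both encoded in SNHG3, are the U17 RNAs, which act in cleavage of the small subunit rRNA precursor rather than in modification. SNORA73B stood at 318, 443 and 454 CPM in hypoxia, against 247, 182 and 185 CPM in normoxia. The groups did not overlap, and the log2 change was 0.99 ± 0.14 (SE; edgeR adjusted p = 0.000101). SNORA73A stood at 311, 434 and 474 CPM in hypoxia, against 233, 179 and 197 CPM in normoxia, with a log2 change of 1.00 ± 0.14. Their sequences were 93.2% identical, so their reads may have been divided between them. With the snRNA scaling their log2 changes were 0.25 and 0.26 and did not pass.

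The U3 genes gave mixed values. SNORD3A, a U3 gene needed for the first cleavages of the rRNA precursor, had 618, 663 and 1479 CPM in hypoxia, against 465, 358 and 543 CPM in normoxia. The groups did not overlap, but C6 stood far above the other hypoxia libraries. The log2 change was 1.01 ± 0.29 (SE; edgeR adjusted p = 0.00882), and without C6 it was 0.50, still past the threshold. The call was lost when transcript rows were tested in place of gene sums (log2 change 0.98) and with the snRNA scaling (0.27; edgeR adjusted p = 0.0656). SNORD3D had 39.7, 39.4 and 33.6 CPM in hypoxia, against 13.03, 9.74 and 10.6 CPM in normoxia, a log2 change of 1.76 ± 0.11, and here C6 was the lowest of the hypoxia libraries. SNORD3B-1 was the 1 member that fell: 1.65, 1.18 and 1.32 CPM in hypoxia lay under 2.79, 2.90 and 1.96 CPM in normoxia, a log2 change of -0.88 ± 0.22 (SE; edgeR adjusted p = 0.00453). SNORD3C, at a log2 change of 0.80, was not called. Of the 31-base words of SNORD3A 99.5%, and 100% of those of SNORD3D and SNORD3B-1, recur in other snoRNA genes, so how reads were shared out among these copies is uncertain.

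The other RNAs with promoters of their own were also higher. SNORD13, the U13 RNA, which guides acetylation of the small subunit rRNA, had 4.46, 6.10 and 8.50 CPM in hypoxia, against 2.57, 1.55 and 2.96 CPM in normoxia. The groups did not overlap, and its log2 change was 1.43 ± 0.27. SNORD118, the U8 RNA needed for large subunit rRNA processing, had 0.757, 0.864 and 1.08 CPM in hypoxia, against 0.453, 0.250 and 0.280 CPM in normoxia. Its log2 change of 1.45 ± 0.34 lay beside 1.35 ± 0.07 for TMEM107, the ciliary gene whose annotated exon it overlaps, so that reads of the gene pair cannot be told apart. With the snRNA scaling SNORD118 had 0.73 and was not called (edgeR adjusted p = 0.103). It was under the filter level in a normoxia library.

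**Figure D3:**
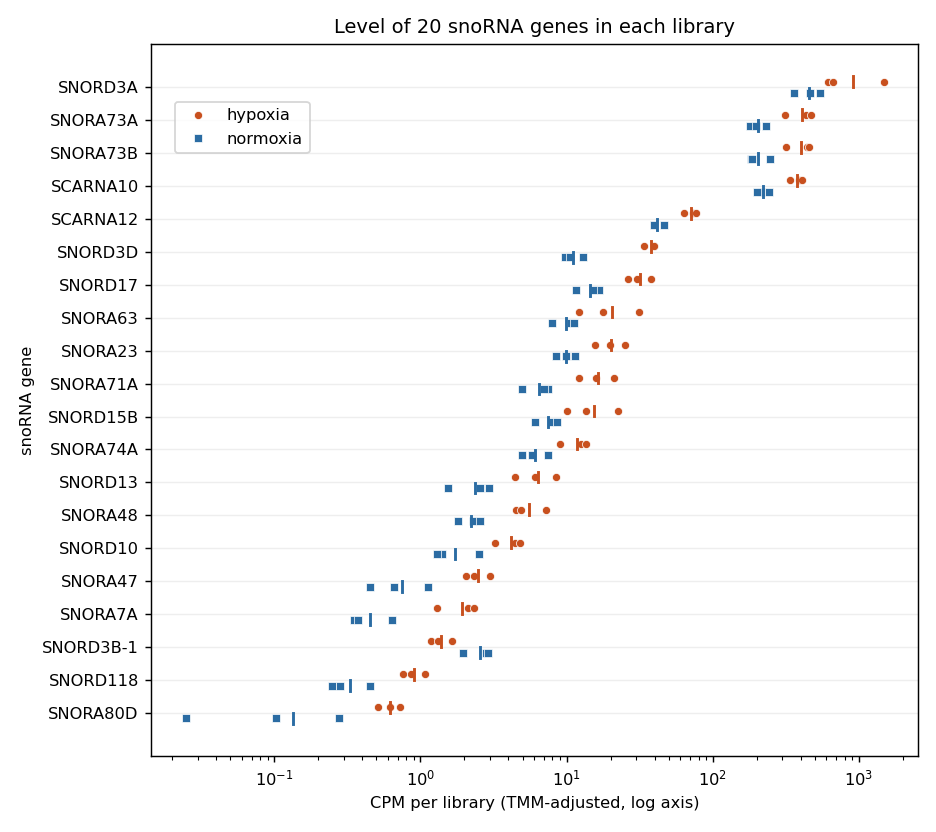
The horizontal axis gives CPM per library on a log scale for 20 snoRNA genes. Circles are hypoxia libraries, squares are normoxia libraries and short lines are group means (n = 3 each). Hypoxia lies to the right for each gene shown except SNORD3B-1, and SNORD3A in C6 reached 1479 CPM.

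Among the members with the largest changes were 7 H/ACA box RNAs: SNORA6 (log2 change 3.66), SNORA80D (2.17), SNORA7A (2.07), SNORA37 (1.97), SNORA16A (1.88), SNORA9 (1.82) and SNORA47 (1.71). The C/D box gene SNORD3D (1.76) lay among them. None of these had groups that overlapped. Most of the H/ACA members were sparse. Of the 7, only SNORA7A and SNORA47 were over the filter level in every normoxia library, as was SNORD3D. SNORA6 rested on 9.71, 20.6 and 16.5 expected counts in hypoxia, against 1.93, 0.02 and 1.94 in normoxia, and all of its 31-base words recur in other annotated genes. SNORA80D rested on 22, 25 and 17 counts in hypoxia, against 11, 1 and 4 in normoxia, and without normoxia C1 its log2 change was 3.21. SNORA16A gave 3.52 without normoxia C1 and lost its call without hypoxia C5, without hypoxia C6, without normoxia C2 and without normoxia C3. SNORA7A was better covered, with 1.29, 2.13 and 2.33 CPM in hypoxia, against 0.352, 0.375 and 0.637 CPM in normoxia, though all of its words too recur in other genes. SNORA47, which shares no 31-base word, had 2.05, 2.99 and 2.33 CPM in hypoxia, against 1.13, 0.449 and 0.662 CPM in normoxia.

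Set against their hosts, the snoRNAs moved the other way. A tested host, the same-strand gene that contains the snoRNA, existed for 66 of the 71 members, 49 hosts in all. Of the 66, 57 snoRNAs rose, while the host fell for 51, rose for 6 and did not pass for 9. Over all genes tested, 36.5% rose and 36.3% fell. In 44 pairs the snoRNA rose and its host fell in the edgeR test. The log2 ratio of snoRNA to host count within each library, which no scaling between libraries can alter, was tested with limma over all 1330 same-strand nested pairs. It rose in 53 of the 66 snoRNA pairs and fell in none, where 15.9% of all pairs rose and 6.32% fell. Of the 40 snoRNA pairs whose snoRNA was over the filter level in every normoxia library, 36 ratios rose, with a median of 1.85, beside 16.6% of the 1057 pairs whose inner gene met that level. The median change of the ratio was 1.89 over snoRNA pairs and 0.19 over the other 1264 pairs. The difference was positive in each of the 66. It was positive in 64 without hypoxia C6, and in 65 without hypoxia C5, without normoxia C2 or with a pseudocount of 5. For SNORD118 it was negative with a pseudocount of 5, without hypoxia C6 and without normoxia C2. Without hypoxia C5 SNORD118 had 0.16, so SNORD118 was not the only pair to change sign. In 58 the libraries of the groups did not overlap. The share of all 1330 pairs without overlap is not given, so how unusual this is cannot be judged. Among single genes, 38.1% did not overlap with hypoxia higher, and 75.7% in either direction. The 66 snoRNA pairs count 1 host up to 4 times, hold the overlapping SNORA17B entries in SNHG7 as 2 pairs, and are not independent. The other short RNA classes were higher in the same libraries, 1.66-fold for snRNA to 2.12-fold for scaRNA, and a change in how well short RNAs were recovered would enter these ratios. Its part was not tested.

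**Figure D4:**
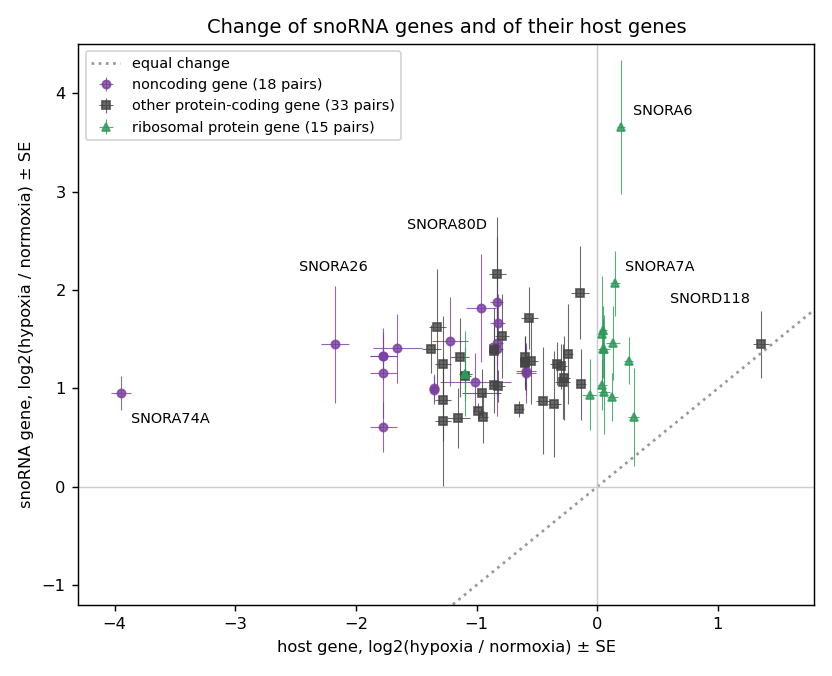
Each point is a snoRNA and host pair, with the log2 change of the host on the horizontal axis and that of the snoRNA on the vertical axis (hypoxia over normoxia, bars are SE), marked by the kind of host. All 66 points lie above the dotted line of equal change, SNORD118 closest to it and SNORA74A farthest left.

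Noncoding hosts of tested snoRNAs fell throughout, while some noncoding hosts without one did not. The 11 noncoding hosts of tested snoRNAs all fell, at a median of -1.22 on the log2 scale. They fell also under each of the other 3 scalings. By contrast 16 of their 18 snoRNAs rose with the main scaling, beside 36.5% of all genes. With the snRNA scaling the only ones of the 18 called were SNORA71A, SNORA71C, SNORA16A, SNORD22 and SNORA7B. SNHG4 fell to 4.79, 4.58 and 5.83 CPM in hypoxia, against 76.0, 78.7 and 79.5 CPM in normoxia, a log2 change of -3.95 ± 0.08. Its intron-encoded SNORA74A (the U19 RNA) had 9.05, 12.5 and 13.7 CPM in hypoxia, against 7.42, 4.97 and 5.78 CPM in normoxia, a log2 change of 0.95 ± 0.18, or 0.22 and not called with the snRNA scaling (edgeR adjusted p = 0.253). The log2 ratio of SNORA74A to SNHG4 was 0.92, 1.44 and 1.23 in hypoxia, against -3.35, -3.98 and -3.78 in normoxia. This difference of 4.90 ± 0.20 (SE; limma adjusted p = 2.87e-06) was the largest of the 66, and SNORA74A shares no 31-base word with another gene.

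SNHG17 held 4 tested snoRNAs. The host had 7.29, 5.50 and 6.31 CPM in hypoxia, against 22.5, 19.7 and 23.2 CPM in normoxia, a log2 change of -1.77 ± 0.11. SNORA71A, a pseudouridylation guide, had 12.1, 16.01 and 21.0 CPM in hypoxia, against 7.50, 4.94 and 7.03 CPM in normoxia, a log2 change of 1.33 ± 0.20. SNORA71C changed by the same 1.33 and SNORA71D by 1.15, while SNORA71B had 0.61 and did not pass (edgeR adjusted p = 0.0508). SNORA71D was no longer called with library totals (log2 change 1.00), nor without hypoxia C5, hypoxia C6, normoxia C2 or normoxia C3. It was under the filter level in a normoxia library. All 4 ratios to SNHG17 rose, by 2.32 to 3.16. The copies differ enough in sequence, 84.3% identity between SNORA71A and SNORA71C, that none shared a 31-base word with another gene.

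The other noncoding hosts of tested snoRNAs fell too. SNHG3 fell to 94.6, 88.4 and 88.2 CPM in hypoxia, against 224, 235 and 234 CPM in normoxia, and the log2 ratio of SNORA73B to SNHG3 rose by 2.34 ± 0.23. SNHG12 fell by 0.83, with log2 changes of 1.40 for SNORA61, 1.88 for SNORA16A and 1.46 for SNORA44, of which SNORA44 did not pass (it did without normoxia C1, at 2.89, and had 0.75 without hypoxia C6) and SNORA61 lost its call without hypoxia C5, hypoxia C6 or normoxia C2. All of these snoRNAs were under the filter level in a normoxia library, so each could enter the test through its hypoxia level alone. SNHG1 fell by 1.22 while SNORD22 had a log2 change of 1.48, and SNHG8 fell by 1.66 while SNORA24 had 1.41. DANCR, a noncoding RNA studied in cell differentiation, fell by 2.17. Its SNORA26 rested on 11.99, 14.99 and 27.99 expected counts in hypoxia, against 13.94, 1.96 and 6.96 in normoxia. SNORA26 too was under the filter level in a normoxia library. The groups overlapped, and the call of SNORA26 (log2 change 1.45; edgeR adjusted p = 0.0472) was lost with DESeq2 (adjusted p = 0.0603), with other scalings and when any 1 of 4 libraries was left out. Of a wider list of 23 noncoding hosts, 13 of the 20 that could be tested were lower, 3 were higher and 4 were not called. SNHG5 (0.74), SNHG29 (0.14) and SNHG30 (0.82) were those that rose, none of them with a tested snoRNA, and none rose with the snRNA scaling. GAS5, host of many short C/D box RNAs, fell by 2.29.

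Ribosomal protein hosts did not share the fall. Of 11 such hosts of 15 tested snoRNAs, 1 fell, 5 rose and for 5 there was no call. The hosts' median log2 change was 0.12. Among the risen hosts, RPL32, RPSA, RPL12 and RPL10 had negative changes with the snRNA scaling, and RPL32 had one with library totals. Of their snoRNAs 13 of 15 rose, the median being 1.28. The ratio to the host rose in 10 of 15 pairs, with a median of 1.32, against 17 of 18 pairs with a median of 2.63 for noncoding hosts. SNORD15B, a C/D box RNA in RPS3, had 10.1, 13.5 and 22.6 CPM in hypoxia, against 7.98, 6.04 and 8.53 CPM in normoxia, while RPS3 had 1695, 1853 and 1815 CPM in hypoxia, against 1772, 1743 and 1711 CPM in normoxia. RPS3, at a log2 change of 0.04 ± 0.04, was not called, and the ratio rose by 0.93 ± 0.28 (limma adjusted p = 0.0463). SNORA7A in RPL32, itself at a log2 change of 0.15, gave a ratio change of 1.88. The exception was RPL23, which fell by 1.09 while SNORA21 and SNORA21B had log2 changes of 1.14 and 1.15. SNORA21B was under the filter level in a normoxia library. The difference between host kinds was not tested.

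The remaining 27 protein-coding hosts, of 33 pairs, fell in 25 cases and rose in 1 (TMEM107), and the ratio rose in 26 pairs with a median of 1.83. EIF4A1, a translation initiation helicase, had 576, 599 and 587 CPM in hypoxia, against 893, 893 and 881 CPM in normoxia. Its SNORA48, SNORD10 and SNORA67 changed by 1.32, 1.26 and 1.26 on the log2 scale, and the 3 ratios by 1.85 to 1.90. SNORD10 had 3.22, 4.46 and 4.82 CPM in hypoxia, against 1.41, 1.30 and 2.50 CPM in normoxia. EIF4A2 fell by 0.86, with log2 changes of 1.03 for SNORA63, 1.38 for the Rfam-named RF00092 (now SNORA63B) and 1.40 for SNORA81, which lost its call without hypoxia C6. SNORA81 was under the filter level in a normoxia library. SNX5, a sorting nexin, had 41.1, 38.4 and 41.0 CPM in hypoxia, against 84.7, 85.2 and 87.3 CPM in normoxia, and SNORD17 from its intron had 26.5, 30.4 and 37.8 CPM in hypoxia, against 16.7, 11.6 and 15.1 CPM in normoxia. IPO7, a nuclear import receptor, fell by 0.82 while SNORA23 changed by 1.02 ± 0.16, or 0.29 and not called with the snRNA scaling (edgeR adjusted p = 0.102). In TAF1D (log2 change -1.28) only SNORA8 of 3 tested snoRNAs passed, at 1.24, and it lost the call with library totals and without any 1 of hypoxia C5, hypoxia C6, normoxia C1 or normoxia C2. SNORA8 and SNORA40 were under the filter level in a normoxia library. SNORA18 and SNORA40 had log2 changes of 0.88 and 0.67. Without hypoxia C6 these were 0.50 and -0.24, and SNORA18 was called without hypoxia C4 (1.16; edgeR adjusted p = 0.0295). SCARNA10 in NCAPD2 and SCARNA12 in PHB2 had log2 changes of 0.79 and 0.77, at 380 and 71.3 CPM on average in hypoxia, against 220.2 and 41.9 CPM in normoxia, and with the snRNA scaling 0.06 and 0.04, not past the threshold.

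**Figure D5:**
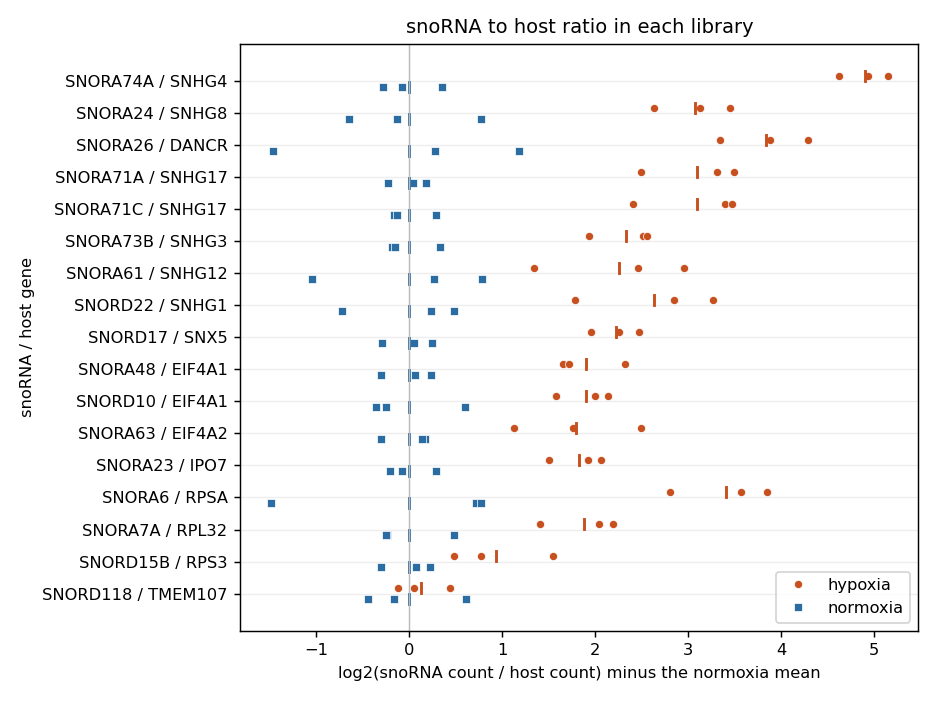
The horizontal axis gives the log2 ratio of snoRNA to host count in a library minus its mean over the normoxia libraries, for 17 pairs. Circles are hypoxia libraries, squares are normoxia libraries and short lines are group means (n = 3 each). SNORA74A over SNHG4 lies farthest to the right at a mean of about 4.90, and the groups overlap for SNORD118 over TMEM107.

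Because many snoRNAs overlap an annotated exon of a host isoform, reads of host RNA could have been counted to the snoRNA or the reverse. Restricted to the 29 pairs without any same-strand exon over the snoRNA, the ratio rose in 24, with a median of 2.22. In the 20 pairs whose snoRNA shares no 31-base word with another gene it rose in 15, with a median of 2.02. Of these 20 snoRNAs 16 rose themselves. Over all nested pairs 15.9% of ratios rose, and over all genes tested 36.5% rose. The shares among other pairs restricted in the same ways are not given. SNORD17, SNORA23, SNORA71A, SNORD15B, SNORA74A and SNORA47 belong to both sets.

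Of the 71 tested members 65 lay in an intron of the host transcript examined, with a median intron length of 857 bases and a median distance of 271 bases to the 3′ splice site. Efficiently processed intronic C/D box snoRNAs are known to sit a short way before that site. The 20 tested members that ended 50 to 100 bases before it rose in 18 cases (median log2 change 1.14), and the 44 that ended farther off rose in 37, with 1.26. Of the 20, 16 were SNORA genes, so this split says little about C/D box members. By length, 47 of 54 under 150 bases rose, with a median of 1.32, and 13 of 17 longer ones, with 0.99. Of all genes tested, 36.5% rose. Neither split was tested.

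The genes that build, trim and hold snoRNPs, the snoRNA-protein particles, were mostly lower in hypoxia while the snoRNAs were higher. Over all genes tested, 36.3% fell and 36.5% rose. The H/ACA core fell in 4 of 4: DKC1, the pseudouridine synthase, had 23.5, 25.2 and 24.1 CPM in hypoxia, against 77.0, 86.7 and 87.1 CPM in normoxia (log2 change -1.78 ± 0.06), with GAR1 at -1.63, NHP2 at -1.30 and NOP10 at -0.80. Of the C/D core, NOP56 (-2.09), NOP58 (-1.27) and SNU13 (-0.72) fell. FBL, the methyltransferase, rose by 0.37 ± 0.05 in the edgeR test and stood at -0.36 with the snRNA scaling. NOP56 had 46.4, 45.5 and 44.4 CPM in hypoxia, against 202, 195 and 184 CPM in normoxia, with no overlap.

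Of 13 assembly factors 11 fell, among them the AAA ATPase RUVBL1 (-2.05), NUFIP1 (-1.65), the zinc finger protein ZNHIT6 (-1.62) and the H/ACA assembly factor NAF1 (-1.36). The share of all genes tested that fell was 36.3%. ZNHIT3 rose (0.56, and -0.16 with the snRNA scaling) and PIH1D1 had 0.11 and did not pass. Of 10 tested trimming, debranching and capping genes 9 fell, including TOE1 (-1.75), a nuclear 3′ exonuclease, TGS1 (-1.27), which adds the trimethyl cap of U3-type RNAs, DBR1 (-1.18) and the deadenylase PARN (-0.85). XRN1, the cytoplasmic 5′ exonuclease, rose by 0.26, with 0.11 under library totals and -0.47 with the snRNA scaling. NOLC1, the nucleolar and Cajal body chaperone of snoRNPs, fell to 92.8, 90.4 and 84.7 CPM in hypoxia, against 444, 454 and 437 CPM in normoxia, a log2 change of -2.32 ± 0.05. Coilin (COIL) had -0.12 and did not pass. Modification of rRNA was not measured.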

How the data were processed

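The submitters' processing notes name cutadapt, HISAT2, RSEM and GRCh38 (hg38). Program versions, annotation release and strand setting stay unstated in the sources used here. A single table of 251062 transcript rows was deposited. The deposited expected counts are reads that RSEM divided among transcripts, and transcript lengths stand beside them. Another 6 columns, FPKM values of the same libraries, were left unused. Column names give the condition, and their numbers match no replicate number of the labels.

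Rows were matched by transcript identifier to GENCODE release 29. The 48155 rows without a gene, holding 6.12% to 6.39% of the counts, stayed out. The deposited expected counts were summed per gene and rounded, filtered with filterByExpr, scaled by TMM and tested with edgeR 4.0.16 (glmQLFit, glmQLFTest, two-sided; R 4.3.3), with Benjamini-Hochberg adjustment over 17396 genes and a threshold of 0.05. SE is the log2 change divided by the square root of F. The host is the same-strand gene, other than a small RNA, that contains the snoRNA and has the highest mean count. Ratios were tested with limma 3.58.1 (trend, robust) on log2((snoRNA + 0.5)/(host + 0.5)) over 1330 nested pairs. A 31-base word is shared where it occurs in a transcript of another release 29 gene. Both tests were tested on simulated data.

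The members, gene lists and tests were chosen with earlier results of these data known. Named were the largest changes with groups that do not overlap, the most abundant members, hosts with 3 or more tested snoRNAs, a set of snoRNAs whatever their result, up to 4 genes per list and the largest ratios. Others, such as SNORD15B, SNORD22, SNORA24, SNORA18, RPL23, GAS5 and DBR1, were named after their values were seen. SNORD44, SNORD47, SNORD50A and SNORA42 were not found under these names. With 3 libraries against 3, no exact test of a single value can go below 0.1, so none is given. Alternatives were DESeq2 1.42.0, other scalings and filters, transcript rows, other hosts and pseudocounts, and leaving out each library. No date or batch is given in the labels. Intervals and floors cover counting error only. Some sequences and the values of 1 host are not reported here.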

Additional observations from a re-analysis of the deposited data

How the results depend on the processing

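The counts here are of snoRNAs called in either direction, 61 in all, 12 SNORD and 46 SNORA. Scaling to snRNA counts, added after seeing the data, gave 22, 6 and 16, with medians of 0.45 (SNORD) and 0.51 (SNORA). One test per transcript row gave 29, 6 and 20, where 23.3% of all rows rose, with the snoRNA median at 1.22. Members without a same-strand exon over them gave 27, 6 and 21, with 24 ratios, fewer because 33 were tested. A filter of 50 counts in 3 libraries gave 30 of 30 tested, with 20 SNORA, where 39.6% of all genes rose. With that filter 24 of 26 ratios were called, where 28.7% of all nested pairs rose. The cause of the first 2 changes was not tested. DESeq2 called 54 of 71 (53 risen, beside 34.5% of all genes) and library totals 52 of 71 (51 risen, beside 29.9%). Without a filter 158 snoRNAs were tested and 66 were called (64 risen, beside 22.2% of all genes). Library totals moved the median of all genes from 0.02 to -0.13.

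Leaving out each library in turn gave 45 (without hypoxia C6) to 67 (without hypoxia C4) snoRNAs, 9 to 12 SNORD, 33 to 51 SNORA and 42 to 55 ratios. In these fits 33.0% to 34.9% of all genes and 11.1% to 15.6% of all nested pairs rose. Medians ranged over 0.998 to 1.46 (SNORD), 1.03 to 1.48 (SNORA) and 1.75 to 2.12 (ratio).

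RPL32 changed sign as a host with library totals (-0.0039), with totals without mitochondrial and small RNAs (-0.019) and with the snRNA scaling (-0.58), and RPSA with the snRNA scaling (-0.53). The cause was not tested. Over the named snoRNAs and all settings, 384 values kept their side of the threshold and direction, 56 lost the call, 8 gained it and 3 changed sign without a call in either fit: SNORA40 with the snRNA scaling (-0.043) and without hypoxia C6 (-0.24, the lowest with a library left out, the highest being 1.13), and SNORA71B with the snRNA scaling (-0.12). For ratios these were 313, 14, 5 and 3, all 3 being SNORD118, with a pseudocount of 5 (-0.11), without hypoxia C6 (-0.030) and without normoxia C2 (-0.097, the lowest with a library left out, the highest being 0.43).

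No paired analysis was possible because the columns carry numbers that match no replicate number in the labels. Depth limits the members under about 10 counts in a library, and short C/D box RNAs could not be assessed.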
